A study of Mus musculus with 18 samples.

Results

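The nuclear genes for the subunits of respiratory complex I were followed in mouse embryonic cortex treated with trichostatin A (TSA). Members were the protein-coding genes whose symbol begins with Nduf, then a, b, c, s or v, then a number, which gave 38 of the 47729 genes in the count files. Of these, 37 were tested, and Ndufb4c had 0 counts in all 8 RNA libraries. Ndufs6b and Ndufa11b match the pattern but are annotated as pseudogenes, with 0 to 4 counts per library, and were left out. Ndufb1 and Ndufb4b were not analysed here.

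RNA was sequenced from whole cortex at E15.5 in 2 groups, BAF155 cKO embryos given TSA (n = 4 libraries) and BAF155 cKO embryos given Vehicle (n = 4 libraries), and chromatin carrying histone H3 acetylated at lysine 9 (H3K9ac) was profiled in 4 TSA and 4 Vehicle libraries. RNA libraries held 6733415 to 20400727 counts, the fewest in TSA 1. BAF155, encoded by Smarcc1, is a scaffold subunit of the BAF chromatin remodelling complex, and TSA inhibits histone deacetylases. All libraries carry the BAF155 deletion, so TSA and Vehicle differ on a shared knockout background. Smarcc1 was read at 118 to 148 CPM (counts scaled to the normalised library total) across the 8 libraries, and a count over the whole gene with no intact control does not check the deletion. The sources used here do not give the Cre driver, the TSA dose, the time of dosing or whether a library is 1 embryo or a pool. The p-values therefore cover the spread among these libraries, which may be technical.

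Complex I (NADH:ubiquinone oxidoreductase) is the entry point of the mitochondrial respiratory chain. It takes electrons from NADH in its N module, passes them along iron-sulfur clusters to ubiquinone in its Q module, and couples this to proton pumping by its membrane arm. The core subunits carry out catalysis and are shared with bacteria, and some are encoded by mitochondrial DNA. The accessory subunits surround the core and are needed for its assembly and stability. Cortical progenitors and the neurons they produce differ in their use of glycolysis and respiration.

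Members fell together in TSA cortex. At a Benjamini-Hochberg adjusted p under 0.05 in edgeR's quasi-likelihood test over 15000 genes, 32 of 37 members were lower in TSA, 0 were higher and 5 were not called. Over all tested genes, 17.6% were lower and 15.4% were higher. The median log2 fold change of TSA over Vehicle was -0.62 for the members and -0.01 for all tested genes. The estimate was negative for all 37 members in this fit, and for 35 to 37 of them in every other setting tried. Every TSA library lay below every Vehicle library for 23 of 37 members, against 17.4% of all tested genes. The called members stood at 47.4% to 80.8% of their fitted Vehicle level, and 11 of them at 60% or less. The 38 members together took 0.163 ± 0.00451% of counts in TSA libraries and 0.254 ± 0.0398% in Vehicle libraries (SD, n = 4 each).

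The summed level of the members was 1742, 1650, 1604 and 1668 CPM in TSA libraries 1 to 4, against 2546, 2082, 2436 and 2930 CPM in Vehicle libraries 1 to 4. The TSA libraries lay within a narrow band below all Vehicle libraries, and the Vehicle libraries were spread out. Vehicle 4 was the highest Vehicle library for 29 of 37 members and Vehicle 2 was the lowest for 27. Taken 1 at a time, TSA libraries 1 to 4 were below all Vehicle libraries for 24, 33, 33 and 30 of 37 members. The same held for 31.7%, 29.8%, 28.5% and 30% of all tested genes. In bulk tissue, fewer cells of a type that is rich in these mRNAs and less of the mRNA per cell cannot be told apart.

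**Figure D1:**
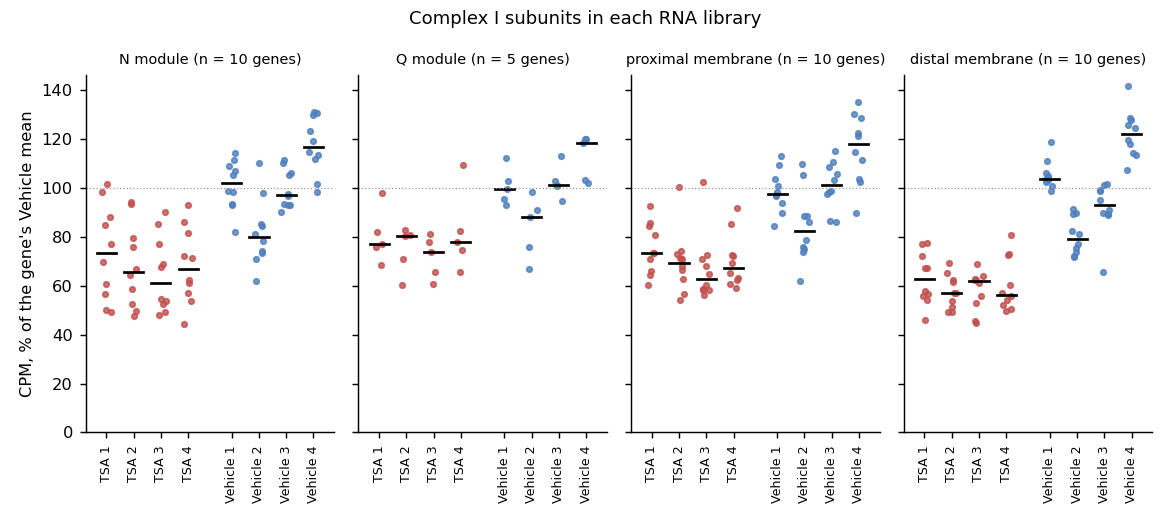
Level of each complex I member in each RNA library, as a percentage of that gene's mean CPM over the Vehicle libraries, in 4 panels by module; each point is a gene, bars are medians over the module's genes, and the dotted line is the Vehicle mean. The TSA libraries (left, red) sit mostly below the Vehicle libraries (right, blue), among which Vehicle 4 is high and Vehicle 2 low.

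Of the 3 nuclear core subunits of the N module, which oxidises NADH, 1 fell and the other two were not called. Ndufv2 (chromosome 17, 66078795 to 66101559, mm10), an iron-sulfur protein beside the flavin, stood at 71.2, 70.5, 74.8 and 81.0 CPM in TSA libraries, against 140, 121, 133 and 175 CPM in Vehicle libraries. The groups were far apart. The log2 difference came to -0.93 ± 0.11 (SE, n = 4 each; edgeR adjusted p = 6.11e-05), the smallest p among the members and rank 138 of all tested genes.

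Its direct partner Ndufv1, which binds the flavin and NADH, read 113, 104, 95.1 and 103 CPM in TSA libraries, against 110, 109, 117 and 109 CPM in Vehicle libraries. The highest TSA library lay inside the Vehicle range, and the log2 fold change of -0.10 ± 0.08 was not called (edgeR adjusted p = 0.383). Ndufs1, the large iron-sulfur subunit of this module, was at 99.5, 95.5, 91.4 and 87.0 CPM in TSA libraries and 83.0, 111, 108 and 103 CPM in Vehicle libraries. These groups overlapped, with Vehicle 1 below every TSA library, and the log2 fold change was -0.12 ± 0.10 (edgeR adjusted p = 0.395). The difference between Ndufv2 and its partners was not tested.

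Core subunits of the Q module, which reduces ubiquinone, were read next. Ndufs3, a core subunit with no iron-sulfur cluster, read 27.3, 29.9, 28.1 and 29.7 CPM in TSA libraries against 40.5, 32.8, 34.2 and 36.7 CPM in Vehicle libraries. The groups did not overlap (log2 fold change -0.32 ± 0.10, edgeR adjusted p = 0.0206).

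Ndufs8, a ferredoxin-like iron-sulfur subunit, read 34.0, 31.4, 26.9 and 32.9 CPM in TSA libraries against 45.4, 33.5, 44.7 and 53.0 CPM in Vehicle libraries. Vehicle 2 fell among the TSA values, and the log2 fold change was -0.50 ± 0.13 (edgeR adjusted p = 0.00889). Ndufs7, which holds the last iron-sulfur cluster before ubiquinone, read 28.0, 23.0, 21.1 and 31.3 CPM in TSA libraries against 28.5, 19.2, 32.4 and 34.4 CPM in Vehicle libraries. Vehicle 2 was the lowest of all 8, and the log2 fold change of -0.15 ± 0.17 was not called (edgeR adjusted p = 0.550). Of the 30 tested members outside the core, Ndufa4 and Ndufa4l2 included, 28 fell, with a median log2 fold change of -0.63. Core and accessory members were not tested against each other.

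The most negative estimates belonged to accessory subunits. Ndufs4, an N module subunit whose loss in mice causes a Leigh-like encephalopathy, read 58.8, 56.9, 57.3 and 53.0 CPM in TSA libraries against 127, 87.5, 107 and 154 CPM in Vehicle libraries. Each TSA value was below each Vehicle value, and its log2 fold change of -1.08 ± 0.14 (edgeR adjusted p = 0.00012) was the most negative of the members. Ndufv3, an N module subunit with a tissue-dependent isoform, read 42.4, 39.7, 38.6 and 40.8 CPM in TSA libraries against 55.6, 39.2, 48.2 and 56.8 CPM in Vehicle libraries. Vehicle 2 lay within the TSA values, and the call was marginal (log2 fold change -0.31 ± 0.11, edgeR adjusted p = 0.0497). The other 5 accessory members of the N module, Ndufa2, Ndufa6, Ndufa7, Ndufa12 and Ndufs6, all fell, with log2 fold changes of -0.47 to -0.83. Ndufa5, the accessory member of the Q module, read 29.6, 26.2, 28.4 and 28.4 CPM in TSA libraries against 40.2, 38.1, 43.5 and 51.1 CPM in Vehicle libraries. Its groups were separate (log2 fold change -0.62 ± 0.11, edgeR adjusted p = 0.000617).

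In the distal membrane arm, all 10 tested members fell, with a median log2 fold change of -0.76. Ndufb6, an accessory subunit of this arm, read 14.2, 15.1, 13.8 and 16.01 CPM in TSA libraries against 31.5, 23.7, 31.1 and 36.8 CPM in Vehicle libraries. The groups were well apart (log2 fold change -1.05 ± 0.13, edgeR adjusted p = 8.71e-05). Ndufb8 and Ndufb9 fell by 0.98 and 0.93 on the log2 scale. Ndufb4 was the least certain of the arm. It read 3.96, 2.54, 3.21 and 2.94 CPM in TSA libraries against 6.12, 3.80, 3.38 and 7.28 CPM in Vehicle libraries, so the groups overlapped. Its log2 fold change was -0.73 ± 0.26 (edgeR adjusted p = 0.0458), and its counts are uncertain because Ndufb4b and Ndufb4c are close copies that could share reads with it.

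In the proximal membrane arm, 9 of 10 members fell, with a median log2 fold change of -0.57. Ndufa8, a subunit facing the intermembrane space, read 51.8, 51.3, 49.9 and 44.6 CPM in TSA libraries against 68.1, 62.4, 72.9 and 78.4 CPM in Vehicle libraries. These groups did not overlap (log2 fold change -0.51 ± 0.09, edgeR adjusted p = 0.000934). Ndufa10, a subunit with a nucleoside kinase fold, read 87.6, 95.2, 97.0 and 86.9 CPM in TSA libraries against 85.1, 104, 105 and 85.1 CPM in Vehicle libraries. Vehicle 1 and Vehicle 4, high for most members, were the lowest of the 8 libraries here, and the log2 fold change was -0.05 ± 0.10 (edgeR adjusted p = 0.748). Ndufa13, also known as GRIM-19, had a marginal call (log2 fold change -0.34 ± 0.12, edgeR adjusted p = 0.0477).

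The rule also took in a pair of genes that lie outside the modules. Ndufa4, now assigned to complex IV, read 114, 111, 103 and 104 CPM in TSA libraries against 249, 146, 178 and 266 CPM in Vehicle libraries. Its groups were far apart (log2 fold change -0.96 ± 0.16, edgeR adjusted p = 0.000508). Its paralog Ndufa4l2, a hypoxia-induced gene, read 2.13, 1.81, 3.31 and 1.38 CPM in TSA libraries against 2.06, 2.45, 2.62 and 1.98 CPM in Vehicle libraries. Values were low and overlapping (log2 fold change -0.07 ± 0.29, edgeR adjusted p = 0.888). Without this pair, 31 of 35 tested members fell.

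**Figure D2:**
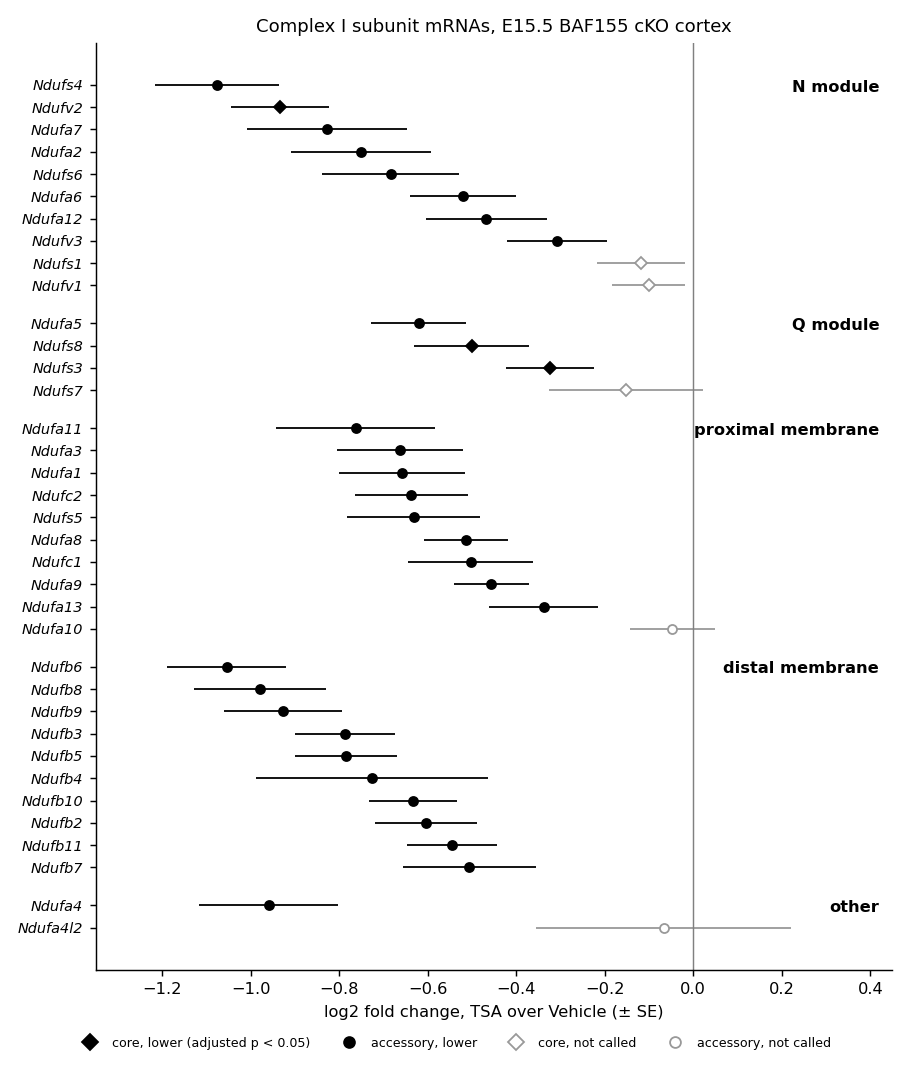
Log2 fold change of TSA over Vehicle, with its standard error, for 36 of the 37 tested members by module; diamonds are core and circles accessory subunits, and filled symbols passed the test. Each estimate shown is below 0, the 5 open symbols lie between -0.15 and -0.05, and Ndufs4 and Ndufb6 lie lowest.

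Other genes of the pathway were counted in the same way. Of 18 assembly factors, which build complex I and are not part of it, 11 fell and 0 rose, among them Tmem70 (log2 fold change -0.76), Ndufaf4 (-0.68) and Ndufaf5 (-0.93). Of the mitochondrially encoded core subunits, mt-Nd1 and mt-Nd2 fell (log2 fold changes -0.63 and -0.55) of 5 tested, and mt-Nd3 and mt-Nd4l were not tested. Both overlapped between groups: mt-Nd1 read 2378, 2488, 2581 and 2407 CPM in TSA libraries against 4347, 2556, 3163 and 5214 CPM in Vehicle libraries, and all TSA values but TSA 3 lay below Vehicle 2. The median log2 fold change of the 5 was -0.51, and the count of 2 rested on single libraries. It was 0 without TSA 1, 1 without TSA 2, TSA 4, Vehicle 1 or Vehicle 4, 4 without Vehicle 3 and 5 without Vehicle 2. Without both Vehicle 1 and Vehicle 4 it was 0, with a median of -0.06. The acyl carrier protein Ndufab1, a subunit of complex I outside the naming rule, was not called (log2 fold change -0.22 ± 0.13, edgeR adjusted p = 0.197).

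Among listed nuclear genes of the other complexes, 3 of 4 fell in complex II, 7 of 9 in complex III, 10 of 10 in complex IV and 10 of 15 in complex V, and 0 rose. These lists leave out mitochondrially encoded subunits. Cox7a2 of complex IV, Uqcrh of complex III and Sdhd of complex II had log2 fold changes of -1.06, -0.99 and -0.83. The catalytic subunits of complex V, Atp5a1 and Atp5b, were not called (log2 fold changes -0.03 and -0.20). Medians were -0.80 for complex IV, -0.75 for complex V and -0.65 for complex III, beside -0.62 for the complex I members. The complex II median was nearer 0, at -0.30, with estimates from -0.83 to 0.23.

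Lists with other mitochondrial roles held both called and uncalled genes. Of 15 mitochondrial housekeeping genes (carriers, import and chaperones), 5 fell and 0 rose, led by the chaperonin Hspe1 (log2 fold change -1.15). Of 16 tested regulators of mitochondrial biogenesis, 3 fell and 1 rose, with a median log2 fold change of -0.05. Over all tested genes 17.6% were lower and 15.4% were higher, so the regulators fell about as often as genes in general. The GABP subunit Gabpb1 (-0.41), the mitochondrial transcription factor Tfam (-0.36) and the elongation factor Tefm (-0.90) fell, and the coactivator Pprc1 (0.40) rose. Nrf1, which encodes the nuclear respiratory factor of that name, and Yy1 had log2 fold changes of -0.05 and 0.09 and were not called (edgeR adjusted p = 0.736 and 0.521). Of 8 tested hypoxia targets, Bnip3 fell and the other 7 were not called, again no more often than genes in general. Differences between these lists were not tested.

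**Figure D3:**
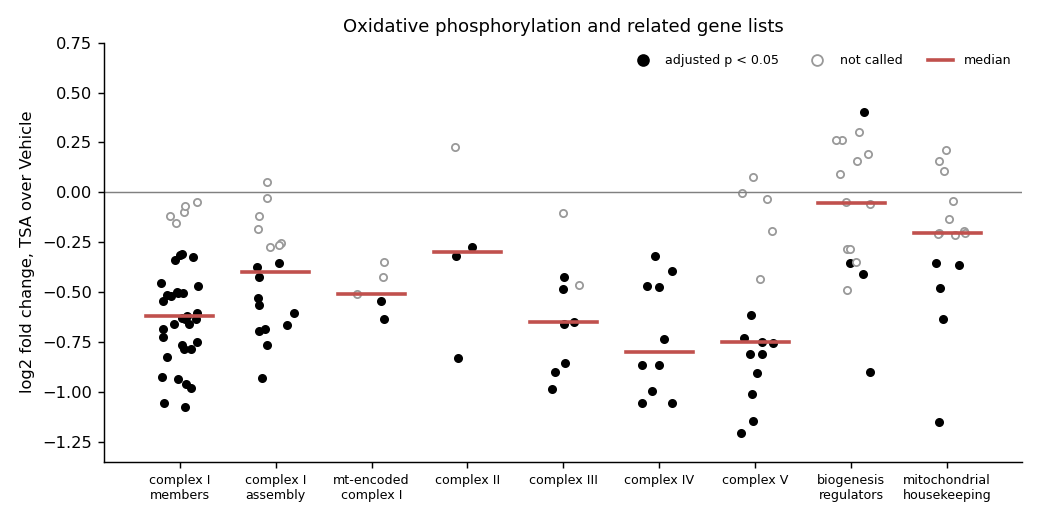
Log2 fold change of TSA over Vehicle for each tested gene of 9 lists; filled points passed the test, open points did not, and red bars are list medians. Nuclear subunits of complexes I, III, IV and V have medians between -0.80 and -0.62, and biogenesis regulators spread around 0.

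Other measures moved with the same libraries. Mitochondrially encoded genes took 1.48% to 1.71% of counts in TSA libraries, against 2.86%, 1.60%, 1.997% and 3.36% in Vehicle libraries 1 to 4, so Vehicle 1 and Vehicle 4 were high here too. Without those 2 libraries, 24 members fell, 23 of them shared with the 32, and the median log2 fold change was -0.46. In that fit 15.9% of all tested genes were lower. The X-inactivation RNA Xist read 0.305, 1.47, 0.494 and 2327 CPM in TSA libraries 1 to 4, against 1768 to 3118 CPM in Vehicle libraries, so Xist status and treatment almost coincide. With Xist status as a factor, TSA 4 alone is set against the Vehicle libraries, because TSA 1 to 3 make up the low-Xist level. In that fit the members' median log2 fold change was -0.62, and fewer members were called. TSA 4, the TSA library with high Xist, was below all Vehicle libraries for 30 of 37 members, against 30% of all tested genes.

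Some cell type markers changed as well, beside 17.6% of all tested genes lower and 15.4% higher. Of 8 excitatory neuron markers, 7 rose and 0 fell, and their summed level was 6685 to 7480 CPM in TSA libraries against 4461 to 6079 CPM in Vehicle libraries. Of 8 inhibitory neuron markers, 7 fell and 1 (Lhx6) rose, with sums of 500 to 730 CPM in TSA libraries against 943 to 1193 CPM in Vehicle libraries. Of 5 basal progenitor markers, Eomes and Neurog2 rose, and of 7 erythroid markers, 2 fell, with sums of 142 to 178 CPM in TSA libraries against 197 to 469 CPM in Vehicle libraries. Of 9 apical progenitor markers, 4 rose and 2 fell, with a median log2 fold change of 0.07 and a highest of 0.72. Pax6 (log2 fold change -1.54) and Fabp7 (-0.75) were the 2 that fell. Sums over the 9 markers were 1786 to 1841 CPM in TSA libraries against 1859 to 2221 CPM in Vehicle libraries. Among meningeal and mural markers, 2 of 6 tested fell and 0 rose, with sums of 93.8 to 128 CPM in TSA libraries against 146 to 197 CPM in Vehicle libraries. Of 8 microglial markers 3 fell, of 7 endothelial markers 2 fell and of 6 oligodendrocyte markers 1 fell, and 0 of these rose. The small endothelial and oligodendrocyte counts lie near the share of all tested genes that fell, and are not read as a shift of those cell types. Summed levels overlapped between groups for microglia (32.0 to 45.3 CPM in TSA libraries, 41.2 to 56.1 CPM in Vehicle libraries) and endothelium (124 to 159 CPM in TSA libraries, 118 to 194 CPM in Vehicle libraries), and not for oligodendrocytes (73.3 to 89.5 CPM in TSA libraries, 90.3 to 106 CPM in Vehicle libraries). Muscle and heart markers summed to at most 0.61 CPM. The part of these markers in the members' fall was not tested.

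Members are mostly short genes, and short genes fell more often overall. Among genes with a span of 3 to 10 kb, 18 of 21 members fell, against 24.6% of other genes, with median log2 fold changes of -0.63 and -0.11. Between 10 and 30 kb, 9 of 9 members fell, against 21.6% of other genes. The 2 members between 30 and 100 kb were Ndufs1 and Ndufa10, and neither was called. Ndufs4, which spans 100.3 kb, fell, whereas 6.92% of other genes over 100 kb did. Across the 37 members, Pearson's r between log2 fold change and log10 span was 0.05, and across 14035 genes it was 0.25; both are descriptions over genes of the same libraries. With each library's linear trend over span removed, 24 of 37 members still fell in limma's test, with a median log2 fold change of -0.44, against 15.4% of all genes in that fit.

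H3K9ac, a mark of active promoters, was present at the members in both groups. A gene start in the RefSeq promoter table (GRCm38.p6, which is mm10) was found for 32 of the 37 tested members, and 31 of these had a called peak within 2000 bp of the start in all 8 lists, against 71.3% of 11059 tested genes with a start. The exception was Ndufa1, which had a peak in 7 lists and none in the Vehicle 4 list. That list is the shortest, with 22668 peaks, although Vehicle 4 has the most tags (24075842). The other lists hold 32248 to 61217 peaks. Lists were called library by library by the authors, so peak heights were not compared between TSA and Vehicle.

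Within each list, members' strongest peaks ranked high. By the authors' fold enrichment, the median percentile of the strongest member peak was 90.5, 94.0, 90.9 and 93.5 in TSA lists 1 to 4, and 89.9, 87.8, 90.2 and 73.5 in Vehicle lists 1 to 4. The same median over all tested genes with a peak was 78.7 to 87.6 in TSA lists and 73.5 to 84.0 in Vehicle lists. In Vehicle 4, members and all genes had the same median. Ndufs4, whose mRNA fell most, lay between percentiles 90.9 and 98.8 in TSA lists and between 80.2 and 99.2 in Vehicle lists. Ndufv1, whose mRNA was not called, lay between 40.6 and 87.8 in TSA lists and between 16.02 and 91.2 in Vehicle lists. Ndufs7, also not called, had a median percentile of 93.9 over the lists. Ndufa1 and Ndufb4, which fell, had the lowest medians of the members, 51.0 and 63.9. Peak rank and RNA change were not tested against each other. Ndufs3 lay above percentile 95 in all 8 lists.

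The strongest summit lay downstream of the start, in the direction of transcription, for 28 of 32 members, at a median of 233 bp over the 32 members. Summit positions were not measured for other genes, so this place is not shown to be particular to the members. The other 4 were Ndufa1, Ndufb3, Ndufb11 and Ndufa7, with median summit positions of -415, -403, -323 and -254 bp. Each of these 4 has a gene on the opposite strand that starts close by, as do 7 of the other 28 members. For such members, a peak near the start cannot be assigned to either gene.

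**Figure D4:**
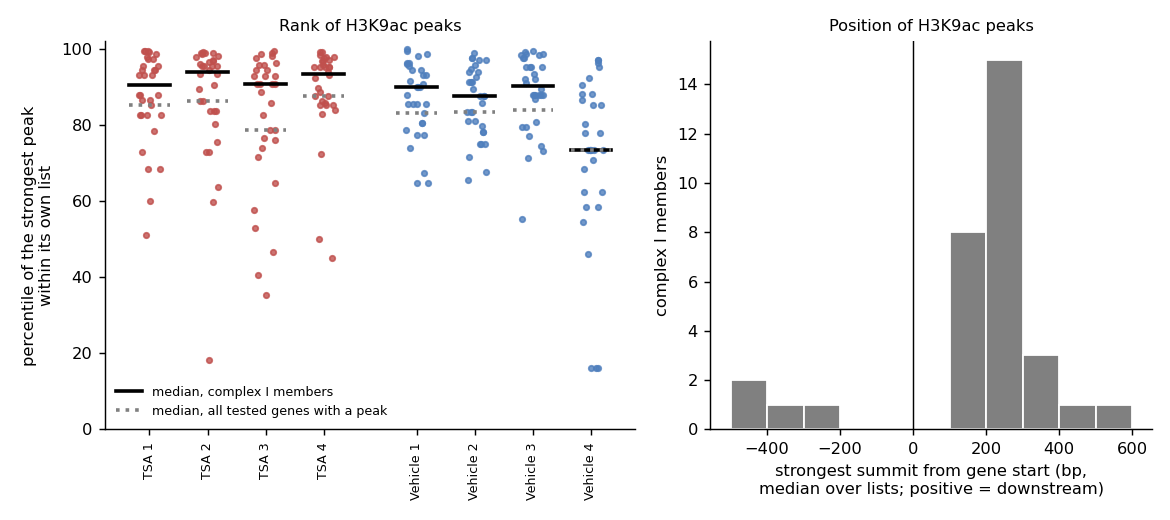
Left, percentile of the strongest H3K9ac peak within 2000 bp of each member's start among all peaks of the same list, by fold enrichment; bars are medians of the members and dotted bars medians of all tested genes with a peak. Right, histogram of the distance in bp from gene start to strongest summit (median over lists), with 28 members downstream and 4 upstream of the start.

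Some members share their promoter region with another gene. An opposite-strand start lay within 1000 bp for 11 of 32 members (34.4%) and for 24.0% of 11059 tested genes. In 8 of these pairs both genes were tested. The starts diverge in 6 pairs, and in the other 2 (Ndufa1 with Rnf113a1, Ndufb11 with Rbm10) the transcribed regions overlap by about the distance between the starts (16 and 116 bp), where reads cannot be given to a strand with this library kit.

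Neighbours did not all follow the member. All 8 members fell, while 3 neighbours fell, 1 rose and 4 were not called. Rbm10, an RNA-binding splicing regulator, read 49.4, 44.96, 45.3 and 49.1 CPM in TSA libraries against 41.8, 34.0, 37.3 and 36.3 CPM in Vehicle libraries. It rose without overlap (log2 fold change 0.33 ± 0.09, edgeR adjusted p = 0.0129), while Ndufb11, its partner, read 42.7, 41.2, 43.6 and 46.0 CPM in TSA libraries against 66.5, 52.2, 63.0 and 71.9 CPM in Vehicle libraries. Ndufb11 fell without overlap (log2 fold change -0.55 ± 0.10, edgeR adjusted p = 0.00109). Rbm10 and Ndufb11 lie on the X chromosome, as do Ndufa1 and Rnf113a1, and Xist status almost coincided with treatment. The part of Xist status in the changes of these pairs was not tested. Fam126b, which encodes a subunit of a phosphatidylinositol kinase complex, fell with Ndufb3 (log2 fold changes -0.51 ± 0.10 and -0.79 ± 0.11), and so did Mrpl47, a mitochondrial ribosomal protein gene, with Ndufb5 (-0.45 and -0.78) and Rps28, a cytosolic ribosomal protein gene, with Ndufa7 (-0.51 and -0.83). Vmac and Phf14, the neighbours of Ndufa11 and Ndufa4, had log2 fold changes of 0.21 and 0.11 and were not called.

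The log2 ratio of member to neighbour was lower in TSA than in Vehicle in all 8 pairs. The difference was -1.04 for Ndufa4 with Phf14, -0.93 for Ndufa11 with Vmac, -0.88 for Ndufb11 with Rbm10 and -0.27 for Ndufb3 with Fam126b, and in each of these 4 pairs all TSA ratios lay below all Vehicle ratios. A two-sided exact permutation test over the 8 libraries gave p = 0.0286 in these 4 pairs, the smallest it can give, and 0.0571 after adjustment over 8 pairs, so 0 pairs passed. The other 4 pairs had adjusted exact p-values of 0.0914 to 0.257.

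**Figure D5:**
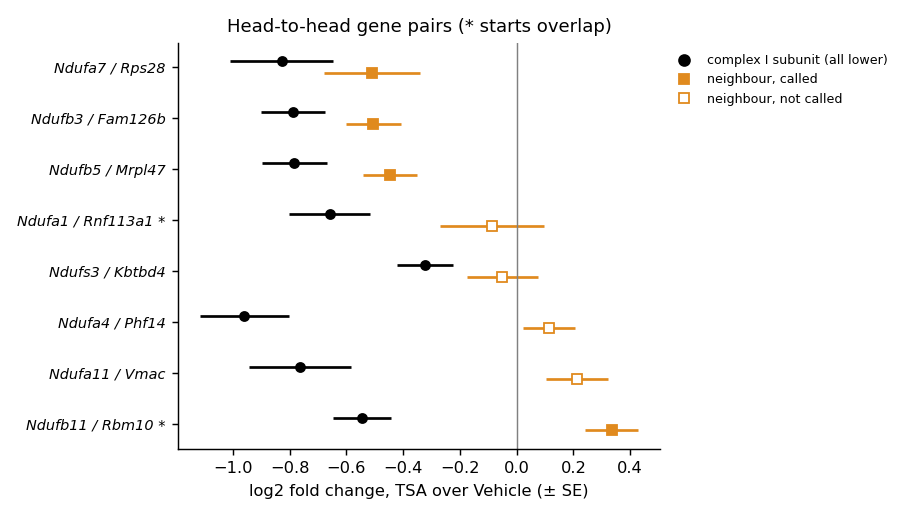
Log2 fold change of TSA over Vehicle, with its standard error, for 8 head-to-head pairs of a complex I member (black circles) and its neighbour (orange squares, filled where called); an asterisk marks the 2 pairs whose starts overlap. In each pair the member lies left of its neighbour, and Rbm10 is the neighbour that rose.

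The stretch between the starts is shown for 2 diverging pairs of like spacing, 1 whose neighbour was not called and 1 whose neighbour fell, read in the member's direction (RefSeq, GRCm38.p6, plus strand). Capitals mark a match to the palindrome-like consensus word of NRF-1, a transcription factor known to bind the promoters of many respiratory chain genes.
Ndufa11 with Vmac, chr17:56717700-56717761: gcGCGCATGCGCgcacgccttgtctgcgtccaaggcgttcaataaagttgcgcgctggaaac
Ndufb3 with Fam126b, chr1:58586334-58586396: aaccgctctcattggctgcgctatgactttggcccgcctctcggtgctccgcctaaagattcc
The first stretch holds the word and the second does not. The other diverging pairs did not repeat this contrast. The word was absent from the promoter windows (defined below) of Ndufa4 and Ndufs3, whose neighbours Phf14 and Kbtbd4 were not called. It was also absent from those of Ndufa7 and Ndufb5, whose neighbours fell. For Ndufa4 and Ndufb5 the window covers only part of the stretch. Whether the word goes with the neighbour's change was not tested.

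Short words bound by known promoter factors were counted on both strands in the 300-base RefSeq windows (250 bases before the start and 50 from it) of 32 members and of 11059 tested genes. The NRF-1 word was in 7 member windows (21.9%) and in 10.1% of all windows. All 7 genes fell, as did 29 of the 32 members with a window. The word AAGATGGC or its reverse complement, the core of the site of YY1, was in 7 member windows (21.9%) and in 4.46% of all windows. The GABP word CCGGAAG was in 12.5% of member windows and 17.3% of all windows, and the Sp1 word GGGCGG in 43.8% and 64.8%. CCAAT was in 31.3% and 38.4%, TGACGTCA in 9.38% and 3.34%, and TATAAA in 12.5% and 6.79%. Median GC content was 59.0% in members and 61.3% in all windows. These matches describe letters, not binding, and the members were not tested against other genes here.

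All 7 YY1 words of the members lay just after the gene start and read AAGATGGC in the direction of transcription, between positions 23 and 46, where the first transcribed base is 1. A YY1 word in that strand and after the start was found in 2.07% of all windows. The 7 sites are shown with 8 bases before and 4 after, since they share both the word (capitals) and its place.
Ndufa3, chr7:3617387-3617406, plus strand: ccaagaacAAGATGGCcggg
Ndufa9, chr6:126849104-126849123, minus strand: tgtgggagAAGATGGCggcc
Ndufb8, chr19:44555393-44555412, minus strand: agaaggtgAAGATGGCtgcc
Ndufc1, chr3:51408922-51408941, minus strand: tgcggaacAAGATGGCgccg
Ndufs4, chr13:114388048-114388067, minus strand: cctacaggAAGATGGCggcg
Ndufs6, chr13:73328438-73328457, minus strand: tcaccggcAAGATGGCggcg
Ndufs7, chr10:80249465-80249484, plus strand: ccgaggccAAGATGGCggcg
Of these 7 genes, 6 fell, beside 29 of all 32 members with a window, with log2 fold changes of -0.46 for Ndufa9 to -1.08 for Ndufs4, and Ndufs7 was not called (-0.15). Ndufs6, an N module subunit with a zinc site, was the member with both words, and its NRF-1 word lay at positions -16 to -7.
Ndufs6, chr13:73328484-73328503, minus strand: gctgtGCGCCTGCGCcggca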

How the data were processed

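The RNA values are counts as deposited, unnormalized, for each Ensembl gene, with totals of 6733415 to 20400727 per library. The build was mm10, per the submitters' processing notes; no source used here names the aligner, the counter or the annotation. TruSeq RNA v2 libraries do not mark strand. Genes kept by filterByExpr were scaled by TMM and tested with edgeR 4.0.16 in R 4.3.3 (robust quasi-likelihood fit, no covariate), with Benjamini-Hochberg adjustment over 15000 genes. CPM are TMM-scaled. No exon lengths were at hand, so levels were not compared between genes. The script was tested on simulated data. Alternatives used DESeq2 1.42.0 and limma 3.58.1, and exact tests SciPy 1.17.1.

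Peaks were called per library with MACS2 2.1.0.20140616 at q 0.1 against 1 input of 18937878 tags, per the file headers. The series holds both a Vehicle input and a TSA input, but every list carries this same control count. The lists of TSA and Vehicle were therefore not each called against an input of their own group, which limits comparing them. Each deposited list has pileup signal, fold enrichment (a ratio to local background) and −log10 p-values and q-values; fold was used to rank peaks within a list, and presence to compare lists. Motif words were typed in from general knowledge and searched on both strands; the NRF-1 word is given by name. Symbols were found for 47224 of 47729 genes, and 34659 matched RefSeq.

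Members, modules and gene lists were chosen with earlier results of these data known. Values per library are given for core subunits (1 member is not reported here), for the accessory subunit with the smallest and largest p in each module, for members that were not called, and for Ndufa4 and Ndufa4l2. Of other lists, up to 3 genes are named by smallest p. Chosen after their values were seen were Nrf1, Yy1, Atp5a1, Atp5b, Lhx6, the neighbours and all 4 called biogenesis regulators. Alternatives changed normalization, filter, test, covariates, span trend, libraries and peak windows.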

Additional observations from a re-analysis of the deposited data

Results flagged for a closer look

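Ndufv1 in Vehicle 3 stood at 117.161 CPM, apart from the other Vehicle libraries at 108.943 to 109.804 CPM, and was the single case among 74 gene-by-group sets of 4 libraries (37 members in TSA and in Vehicle) where the gap to the nearest library exceeded Dixon's critical share of the range. Chance alone gives such a gap in about 1 of 20 sets. The log2 fold change of Ndufv1 was not called.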

How the results depend on the processing

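Of the 32 called members, 11 kept the call and all 32 kept their sign in all 20 settings tried, and 22 kept the call in every setting other than Xist status as a factor. With Xist status as a factor, the comparison is TSA 4 alone against the Vehicle libraries. Fewer members were called there, and the cause was not tested. Leaving out 1 RNA library at a time gave 26 to 32 lower members and medians of -0.68 to -0.52 (lowest counts without TSA 2, and without TSA 3 or Vehicle 4, with 26 and 27). Across these removals, 13.8% to 19% of all tested genes were lower. RLE, upper-quartile factors, no count filter, DESeq2, voom, lane as a factor and leaving out mitochondrial genes gave 29 to 32. Of all tested genes, 9.19% (no count filter) to 18.1% (upper-quartile factors) were lower in these fits. The count of members higher in TSA was 0 throughout. The replicate block gave 32 lower members and a median of -0.62, with 18.3% of all tested genes lower, and changed no call. Same-numbered libraries correlated at 0.07 to 0.11. TSA 1, TSA 2 and TSA 4 correlated best with the Vehicle library of their own number, and TSA 3 with Vehicle 2 (0.15). These values do not settle whether the numbers pair the libraries. Sign turned, without a call, for Ndufs7 with Xist status (0.13), for Ndufv1 with the span trend removed (0.052), for Ndufa10 among library removals (range -0.097 to 0.00426) and for Ndufa4l2 among library removals (range -0.40 to 0.11). With the span trend kept in the same limma fit, a setting added after seeing the data, 28 were lower, against 17.4% of all genes. A trend over exonic length was not run, since no exon lengths were at hand. Peak presence in all lists stayed at 31 members under other windows and a stricter q, and was 32 without Vehicle 4. TSA 1, with 6733415 counts, and members of low count such as Ndufb4 and Ndufa4l2 limit precision.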
